A study of Macaca mulatta with 6 samples.

Results

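Interferons act through a short chain of proteins whose genes are described here. Type I interferons bind a receptor made of the chains IFNAR1 and IFNAR2, interferon gamma binds IFNGR1 and its partner, and kinases of the JAK family at these receptors phosphorylate STAT proteins. STAT2 joins with IRF9 and another STAT to form the complex that switches on antiviral genes, while the interferon regulatory factors (IRFs) are DNA-binding proteins that work upstream of interferon (IRF3 and IRF7), downstream of it (IRF1) or in cells of the myeloid lineage (IRF8). In the retina, microglia, Müller glia and endothelial cells are known to respond to interferon.

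The genes were 9 regulators and receptor chains chosen by name, and each probe set that carried 1 of these symbols in the platform annotation was taken. This gave 11 probe sets for 6 genes, out of 52024 probe sets and 14132 named genes: 9 probe sets for the regulators STAT2, IRF1, IRF3, IRF7 and IRF8, and 2 for the receptor chain IFNAR2. IRF9, IFNAR1 and IFNGR1 were not analysed here, so the receptor class held 1 gene. No value was filtered out.

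The samples were the temporal retinas, without pigment epithelium, of 3 adult male rhesus macaques (Macaca mulatta) aged 8 to 10 years, collected 24 h after gamma knife surgery on 1 intraorbital optic nerve. The treated retinas lay on the side of the nerve given 15 Gy, where the eyeball itself received 3 Gy, and the control retinas lay on the other side, where the eyeball received 1 Gy. Treated and control groups thus share each animal, its anesthesia and a low dose to the eye, and no unirradiated animal was included. Each of the 6 retinas was measured on 1 rhesus expression array from Affymetrix, read in 1 color, and both retinas of a monkey carry the same replicate number and were compared as a pair.

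Values are the log2 of the MAS 5.0 signal as deposited, so a difference of 1 is a doubling, and the number of arrays limits their precision. Differences are treated minus control, with a standard error (SE), a 95% interval and p-values from limma, which were corrected for the 52024 probe sets tested (Benjamini-Hochberg). The median signal per array lay between 6.44 and 7.03, and the treated array of replicate 2 had the lowest median and the largest share of probe sets under 5, at 29.7% against 22.6% to 25.9% on the other 5 arrays. The label of retina was checked against marker genes: the 5 rod markers measured had mean signals from 13.94 to 15.43 and the 5 Müller glia markers from 10.39 to 14.75. Since the RNA came from whole tissue, fewer cells of a type and less RNA per cell cannot be told apart.

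None of the 11 probe sets passed an adjusted p under 0.05, a level that 0.111% of all probe sets passed. Before adjustment, p fell under 0.05 for 2 of the 11 with higher signal in treated retinas, those of IRF1 and the brightest of IFNAR2, and 0 were lower, where 2.97% of all probe sets were higher and 3.77% lower. The methods' t-test, a paired t-test on the same values, put the same 2 probe sets higher, beside 2.68% of all probe sets, and 0 of the 11 passed it after Benjamini-Hochberg adjustment. In all 3 pairs 5 of the 11 were higher, against 13.0% of all probe sets, and treated and control retinas did not overlap for 2 of the 11 (IRF1 and STAT2, both with treated retinas above), against 3.11% of all. By the brightest probe set of each gene, the one with the highest mean signal, 4 of the 6 genes were higher in 3 of 3 pairs, against 19.3% of named genes. An unadjusted p under 0.05 (limma) with higher signal was reached by 2 of the 6, against 5.02% of named genes. Treated retinas lay above controls without overlap for 2 of the 6, against 607 of 14132 named genes. The median difference was 0.42 over the 6 genes and 0.032 over all named genes, of which 55.5% lay above 0. These are descriptions of a short list that was chosen with earlier results of these data known, and no independent support.

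**Figure D1:**
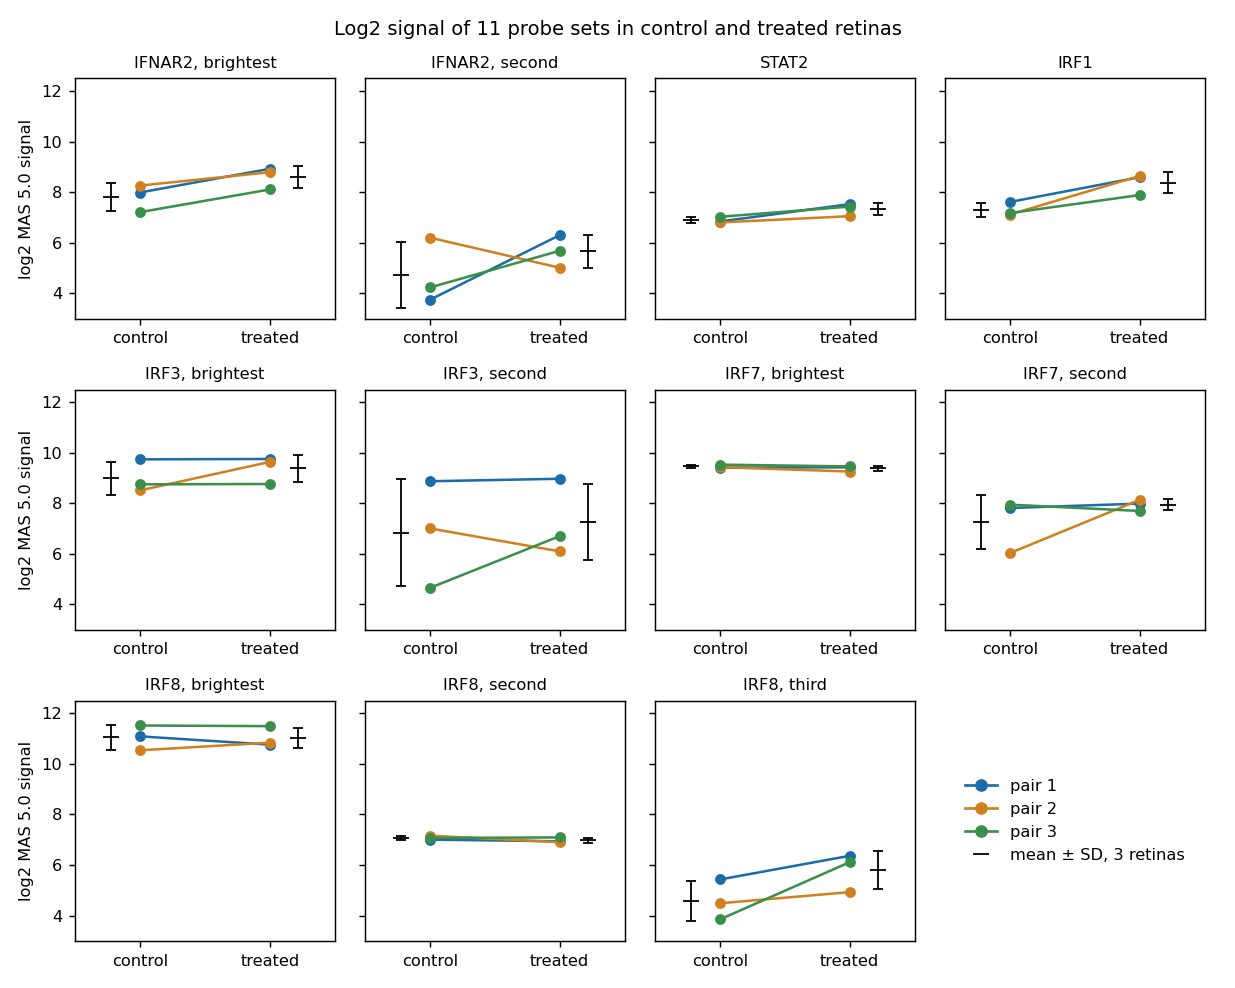
Log2 MAS 5.0 signal (y axis) of each of the 11 probe sets in the control and treated retina of each pair (points joined by a line), with the mean and SD of the 3 retinas beside them. All 3 lines run upward for IRF1, STAT2 and the brightest probe set of IFNAR2, those of the brightest IRF7 probe set stay between 9.26 and 9.53, and the lines of the second probe sets of IRF3 and IFNAR2 run both up and down.

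IFNAR2 encodes the chain that binds type I interferon with high affinity and recruits STAT proteins. Its brightest probe set had a log2 signal of 7.99, 8.26 and 7.21 in the control retinas of replicates 1 to 3 and of 8.93, 8.79 and 8.11 in the treated retinas. Each treated retina lay above its own control, while the groups overlapped, since the control retina of replicate 2 stood above the treated retina of replicate 3. The difference was 0.79 (adjusted p = 0.416, limma, SE 0.18, 3 of 3 pairs higher), a fold of 1.73 with a 95% interval from 1.30 to 2.30. Its pair differences were 0.94, 0.53 and 0.90, the closest agreement among the members whose 3 pairs were all higher apart from STAT2.

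A second IFNAR2 probe set was much dimmer, near the level where MAS 5.0 values scatter widely. It read 3.75, 6.20 and 4.23 in control retinas and 6.31, 5.01 and 5.68 in treated retinas. Pairs 1 and 3 were higher and pair 2 lower, with differences of 2.56, −1.19 and 1.45, and the fitted difference of 0.94 had an interval from −0.90 to 2.78 (adjusted p = 0.814, limma). Its interval holds both 0 and the estimate of the brighter probe set.

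In the RefSeq gene order of the assembly T2T-MMU8v2.0, the protein-coding gene next to IFNAR2 on one side was IL10RB, the shared chain of the interleukin 10 and interferon lambda receptors, followed by IFNAR1, and OLIG1 lay next on the other side. IL10RB stood at a difference of 0.16 (SE 0.33, adjusted p = 0.930, limma). The difference between the changes of the 2 receptor genes was not tested.

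STAT2 is the STAT protein specific to type I and type III interferon signalling. Its 1 probe set gave 6.84, 6.80 and 7.03 in control retinas and 7.53, 7.05 and 7.43 in treated retinas. The lowest treated retina, that of replicate 2, stood just above the highest control, that of replicate 3, so the groups did not overlap. The difference was 0.45 (adjusted p = 0.754, limma, SE 0.27, 3 of 3 pairs higher), a fold of 1.36 with a 95% interval from 0.888 to 2.09. The pair differences were 0.69, 0.25 and 0.40. The standard error that limma gave to STAT2 was larger than its own 3 pairs would give, because limma shares variance among probe sets of like signal. For the probe sets of IRF3, the dimmer ones of IRF7 and IFNAR2, the brightest of IRF8 and that of IRF1, it was smaller than their own pairs would give.

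IRF1, the founding member of its family and an activator of antigen presentation genes, had the largest difference of the 6 genes by their brightest probe sets. Its 1 probe set had a log2 signal of 7.61, 7.12 and 7.17 in control retinas and of 8.59, 8.64 and 7.89 in treated retinas, or 7.30 ± 0.27 against 8.37 ± 0.42 (SD, 3 retinas each). Every treated retina lay above every control retina. The difference was 1.07 (SE 0.23, adjusted p = 0.368, limma), a fold of 2.10 with a 95% interval from 1.46 to 3.03. The pairs stood at 0.98, 1.52 and 0.71, with replicate 2 the largest.

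On the linear scale, the IRF1 signal was 196, 139 and 144 in control retinas and 386, 400 and 237 in treated retinas. The absolute difference of IRF1 was larger than that of 89.9% of all probe sets. In the same gene order, CARINH, the transcript beside IRF1, was its nearest neighbour on one side and stood at 0.54 (adjusted p = 0.638, limma, SE 0.16, 3 of 3 pairs higher), and IL5, a cytokine gene, was nearest on the other side and stood at 0.29 (SE 0.19, adjusted p = 0.774). These neighbours were looked at after the values of IRF1 were known.

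IRF3 is made constantly in most cells and is activated by phosphorylation, not by new transcription. Its brightest probe set read 9.74, 8.51 and 8.75 in control retinas and 9.76, 9.64 and 8.77 in treated retinas. Replicates 1 and 3 hardly differed between the 2 eyes, at 0.015 and 0.013, and replicate 2 alone was higher, by 1.13. The fitted difference of 0.39 (SE 0.23, adjusted p = 0.754, limma; 95% interval of the fold 0.907 to 1.88) thus rests on replicate 2, and it was 0.014 without it. The count of 3 of 3 pairs for this gene includes these 2 differences close to 0.

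The pairs of the second IRF3 probe set did not all run the same way. Its signal was 8.87, 7.01 and 4.66 in control retinas and 8.97, 6.10 and 6.70 in treated retinas, with pair differences of 0.098, −0.91 and 2.05. Here replicate 2 was the pair with the lower treated retina and replicate 3 the one with the higher. The difference of 0.41 had a 95% interval from −0.79 to 1.62 (adjusted p = 0.881, limma), and the mean signals of the 3 monkeys spanned a wider range than the difference between their eyes.

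IRF7, the regulator that amplifies interferon production and is itself induced by interferon in many cells, had 2 probe sets that differed. The brighter stayed level, at 9.41, 9.43 and 9.53 in control retinas and at 9.43, 9.26 and 9.46 in treated retinas, which gave a difference of −0.079 (adjusted p = 0.902, limma, SE 0.12, 1 of 3 pairs higher). The 95% interval of the fold ran from 0.782 to 1.15. This was the narrowest interval of the 11, and the SD of its pair differences, at 0.094, was the smallest.

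The dimmer IRF7 probe set read 7.82, 6.03 and 7.95 in control retinas and 7.99, 8.14 and 7.70 in treated retinas. The control retina of replicate 2 stood apart from the other 5 retinas, which lay between 7.70 and 8.14. The pair differences were 0.17, 2.11 and −0.25, and the fitted difference was 0.68 (SE 0.43, adjusted p = 0.765, limma) with all pairs and −0.038 without replicate 2. Both IRF3 by its brightest probe set and IRF7 by its dimmer one therefore owe their positive differences to the same pair, in which the control retina gave the lowest signal of the 6 retinas for both probe sets. The treated array of that replicate had the lowest overall median, and its part in these values was not tested.

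IRF8 is a factor of microglia, macrophages and dendritic cells, and its 3 probe sets sat at very different signals. The brightest, at 11.09, 10.54 and 11.52 in control retinas and 10.76, 10.84 and 11.49 in treated retinas, was brighter than 92.0% of all probe sets and differed by −0.017 (adjusted p = 0.984, limma, SE 0.13, 1 of 3 pairs higher). The 95% interval of its fold was 0.802 to 1.22. Monkeys differed more than eyes here, with replicate 3 the highest in both groups.

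The second IRF8 probe set, at 7.01, 7.16 and 7.07 in control and 6.94, 6.90 and 7.09 in treated retinas, was level as well, with a difference of −0.10 (SE 0.27, adjusted p = 0.950, limma). The third was close to the dim range, at 5.43, 4.49 and 3.85 in control and 6.37, 4.93 and 6.11 in treated retinas. It was higher in 3 of 3 pairs, by 0.94, 0.44 and 2.26, with groups that overlapped and a difference of 1.21 whose 95% interval ran from −0.22 to 2.65 (SE 0.62, adjusted p = 0.752, limma). No sequence was at hand to compare what the 3 probe sets bind, and signals of different probe sets are not on 1 scale.

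**Figure D2:**
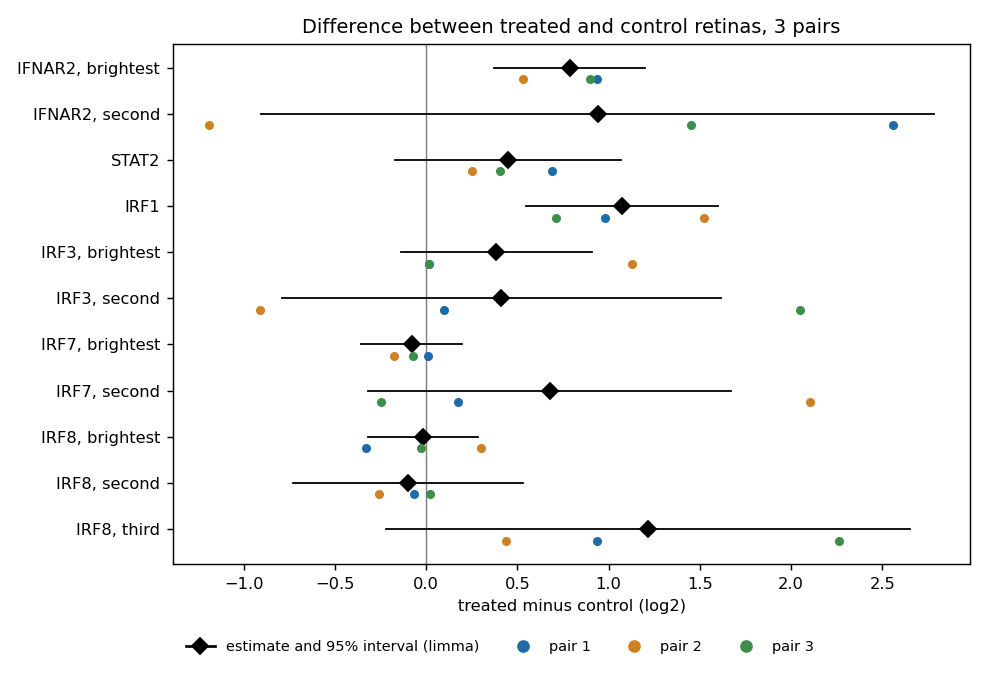
Treated minus control difference on the log2 scale (x axis) for the 11 probe sets: black diamonds with the limma estimate and its 95% interval, and colored points for the 3 pairs. The intervals of IRF1 (0.55 to 1.60) and of the brightest IFNAR2 probe set (0.37 to 1.20) lie above 0, the other 9 include 0, and the pairs spread most for the second IFNAR2 probe set, from −1.19 to 2.56.

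Because IRF8 marks myeloid cells, the microglia and blood leukocyte markers are set beside it. The brightest IRF8 probe set, at a mean of 11.04, stood above every microglia marker, whose means ran from 3.31 to 8.65. The IRF8 probe sets did not follow each other over the arrays. Whether each of them measures IRF8 was not tested, so a level IRF8 rests on the probe set chosen. Of 10 microglia markers, 6 stood above 0, 4 of them at an unadjusted p under 0.05, and 0 passed after adjustment (limma), where 55.5% of named genes stood above 0 and 5.02% were higher before adjustment. C1QA, a complement subunit, stood at 0.61, TYROBP, a signalling adaptor, at 0.64 and AIF1 at 0.78, whereas the microglial receptor P2RY12 stood at −0.27 and the surface protein TMEM119 at −0.47. Their summed linear signal ranged from 1607 to 2001 in control retinas and from 1958 to 2420 in treated retinas. Of 8 leukocyte markers, 6 stood above 0 and 0 passed after adjustment, and an unadjusted p under 0.05 was reached by PTPRC at 0.97 and S100A9 at 0.86, beside the same shares of named genes. The summed signal ranged from 313 to 634 in control and from 514 to 779 in treated retinas. No marker of either list was at the floor of the scale, the lowest being NKG7 of lymphocytes. Of the resident cells, all 5 rod markers were lower in 3 of 3 pairs (median −0.21), as were 1917 of 14132 named genes. All 3 ganglion cell markers measured stood above 0 (median 0.36), 2 of them at an unadjusted p under 0.05 (limma). The medians were −0.17 for cones, −0.022 for bipolar cells, 0.052 for amacrine cells, 0.14 for endothelium and −0.51 for pigment epithelium. Among the 5 Müller glia markers RLBP1 stood at −0.45, KCNJ10 at −0.54 and GLUL at −0.28, each with an unadjusted p under 0.05, and SLC1A3 stood at 0.58, also under 0.05. None of the markers of these resident cells passed after adjustment (limma). These shifts lie beside every difference of the members and of the target genes, and their part in them was not tested. The part of microglia and leukocytes in the values of IRF8, IRF1 or IFNAR2 was not tested.

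Set by role, the 5 regulators had a median difference of 0.39 by their brightest probe sets, from −0.079 for IRF7 to 1.07 for IRF1, and 3 of the 5 stood above 0. The 1 receptor chain stood at 0.79. The median of the regulators in each pair was 0.015, 0.30 and 0.013, and the receptor stood at 0.94, 0.53 and 0.90. With 1 receptor gene measured, the classes were not compared by a test. Without replicate 2 the median of the regulators was 0.014.

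Across the 6 arrays, the brightest probe sets of IFNAR2 and IRF1 had the highest positive correlation among the members (Pearson's r = 0.81), and IRF1 and the brightest IRF3 probe set came next (r = 0.74). Other pairs ran in opposite directions, with r = −0.91 between the brightest IRF3 probe set and the second of IRF8 and r = −0.87 between IRF1 and that same IRF8 probe set. Within a gene, r was 0.61 for the 2 probe sets of IFNAR2, 0.60 for those of IRF3 and −0.18 for those of IRF7, and it ran from −0.36 to 0.17 among the 3 of IRF8. These are descriptions over 6 arrays of 3 animals that share the treatment contrast. Among 9230 other genes with a mean log2 signal of at least 7, those with a pattern most like IRF1 were BHLHE40, a transcriptional repressor of the clock and of stress responses (r = 0.99), the stress gene GADD45B (r = 0.99) and the class I heavy chain MAMU-A (r = 0.98). For IFNAR2 they were the transcription factor EBF1, C2H3orf38 and TMEM45A (r = 0.98 each). With 6 arrays such values are common: 167 genes had r over 0.9 with IRF1, and 111 with IFNAR2.

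The rest of the pathway was described by 8 lists of genes, each gene by its brightest probe set. Called genes lay in the target lists alone: 5 target genes passed an adjusted p under 0.05 (limma), where 0.205% of named genes were called higher. In the 6 lists of ligands, kinases, other STATs, other IRFs, sensors and inhibitors, 0 of 40 genes passed. An unadjusted p under 0.05 was reached by 2 with higher signal and by 0 with lower signal, where 5.02% of named genes were higher and 3.01% lower. The methods' t-test put 1 of these 40 below an unadjusted p of 0.05, with higher signal. All 5 calls were lost without the replicate block, with a variance prior without trend and by the methods' t-test, and leaving out 1 pair gave 3 calls (replicate 1), 10 (replicate 2) or 8 (replicate 3). Whether the lists differ from each other was not tested.

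**Figure D3:**
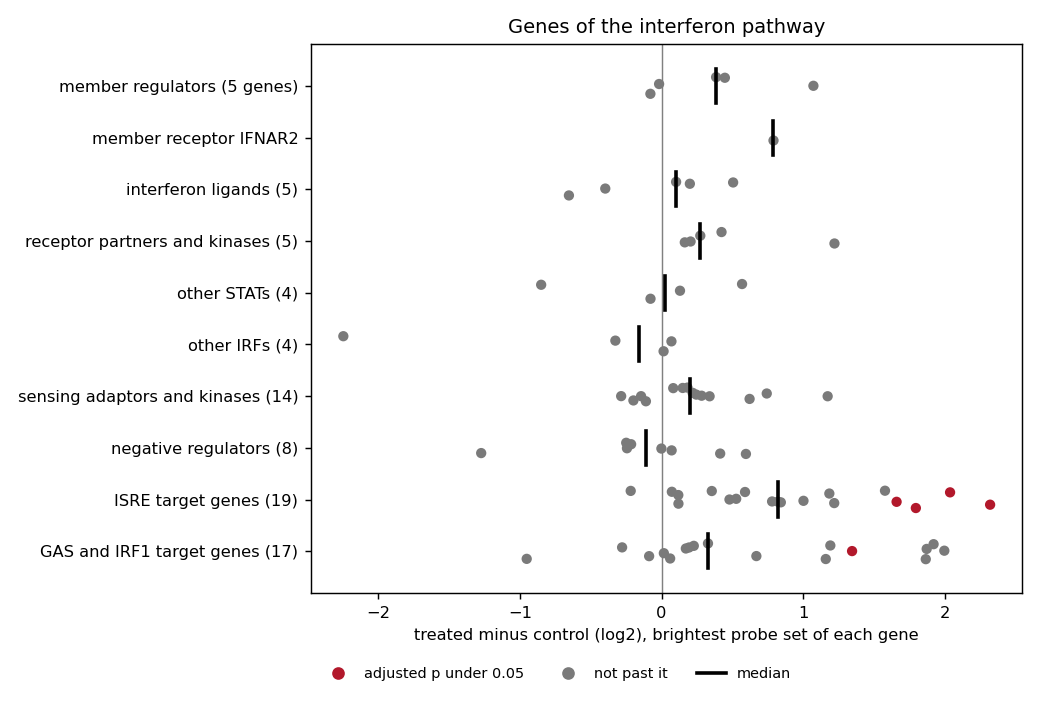
Treated minus control difference (x axis, log2) of each measured gene by its brightest probe set, for the members and the 8 lists (number of genes in parentheses), with a black bar at the median. The 5 genes past an adjusted p under 0.05, in red, all lie in the target lists, whose medians are 0.82 and 0.33, while the medians of the 6 other lists lie between −0.16 and 0.27.

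Of the interferon ligands, 5 of 18 listed were measured, with mean signals from 3.21 to 5.95 that lie in or near the dim range. IFNB1, the interferon made first in many infected cells, read 4.99, 2.70 and 2.92 in control and 3.29, 2.57 and 2.79 in treated retinas, a difference of −0.65 (SE 0.84, adjusted p = 0.884, limma). IFNG, the type II interferon, stood at −0.40 (SE 0.71, adjusted p = 0.920), IFNK at 0.51 (SE 0.96) and IFNA21 at 0.20 (SE 0.67). None of these could be placed above or below 0 at this signal, and 0 of the 5 reached an unadjusted p under 0.05.

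Of the partner chains and kinases, 5 of 6 were measured, and all 5 stood above 0 with a median of 0.27, which was 0.10 without replicate 1 and 0.45 without replicate 2. JAK2, a kinase of the interferon gamma receptor, gave 9.69, 9.64 and 9.73 in control and 10.13, 10.32 and 9.89 in treated retinas by its brightest probe set. Every treated retina was above every control, and the difference was 0.42 (adjusted p = 0.671, limma, SE 0.13, 3 of 3 pairs higher), and 2 more JAK2 probe sets differed by 0.22 and −0.034. JAK1, the kinase that type I and type II receptors share, stood at 0.27 (SE 0.35), and TYK2, the kinase bound to IFNAR1, at 1.22 (SE 0.71, adjusted p = 0.754) by a dim probe set and at 0.049 by a dimmer one.

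The other STATs had a median of 0.026 and the other IRFs of −0.16 (0.033 without replicate 2, −0.29 without replicate 1, −0.24 without replicate 3), with 0 of 4 genes at an unadjusted p under 0.05 in each list. STAT3, which answers to cytokines of the interleukin 6 family, stood at 0.57 (SE 0.42, adjusted p = 0.792, limma), STAT5A at −0.85 (SE 0.68), STAT5B at −0.078 (SE 0.12) and STAT6, the STAT of interleukin 4, at 0.13 (SE 0.22). Among IRFs, IRF2, a repressor that competes with IRF1 for its binding sites, stood at −0.33 (SE 0.41, adjusted p = 0.879, limma). IRF5 stood at 0.070 (SE 0.23) by its brightest probe set and at −0.0041 and −1.31 by dimmer ones. The list and its median also include the corepressor IRF2BP1, which is not itself an IRF, at 0.014 (SE 0.14). IRF4, a factor of lymphocytes, stood at −2.25 (SE 1.22, adjusted p = 0.752) at a signal that was dim throughout and reached 0.0061 in the treated retina of replicate 2.

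The sensors, adaptors and kinases that act before IRF3 and IRF7 had a median of 0.20, and 10 of 14 genes stood above 0. Leaving out replicate 1 gave a median of 0.33 and leaving out replicate 2 one of 0.099. IFIH1, a sensor of double-stranded RNA, read 7.32, 7.20 and 7.02 in control and 8.52, 8.47 and 8.08 in treated retinas and stood at 1.17 (SE 0.20, adjusted p = 0.163, limma). STING1, the adaptor of cytosolic DNA sensing, stood at 0.74 (SE 0.43), TBK1, the kinase that phosphorylates IRF3, at 0.18 (SE 0.12) and IRAK1, a kinase of the Toll-like receptor pathway, at 0.34 (SE 0.22). Of the negative regulators, 3 of 8 stood above 0 and the median was −0.11, or 0.047 without replicate 2 and −0.18 without replicate 1. SOCS3, an inhibitor of JAK kinases, stood at −1.27 (adjusted p = 0.753, limma, SE 0.72, 3 of 3 pairs lower). Its pair differences were −0.023, −1.80 and −1.99, so replicate 1 was level. The treated signals of replicates 2 and 3 were dim, at 3.01 and 3.06. PIAS1 stood at −0.21 (SE 0.11) and PIAS2 at −0.25 (SE 0.12), both of which bind STATs, and the ubiquitin ligase TRIM21 at 0.60 (SE 0.43).

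Of the antiviral genes listed as targets of the complex of STAT2 and IRF9, 18 of 19 measured stood above 0, against 55.5% of named genes, with a median of 0.82. After adjustment 4 passed with higher signal (MX1, ISG15, IFIT3 and IFI27). Before adjustment the same threshold was passed by 12, all with higher signal, against the 5.02% of named genes above. This list was chosen with earlier results of these data known, so these shares are descriptions and no independent support. MX1, an antiviral GTPase, stood at 2.32 (SE 0.16, adjusted p = 0.0112, limma), ISG15, a ubiquitin-like modifier, at 2.04 (SE 0.13, adjusted p = 0.0112), IFIT3 at 1.80 (SE 0.14, adjusted p = 0.0130) and IFI27 at 1.66 (SE 0.20, adjusted p = 0.0477). These 4, the largest of the list, lay above IRF1 (1.07), STAT2 (0.45) and both IRF7 values (−0.079 and 0.68). The list median of 0.82 lay below IRF1. By their brightest probe sets, OAS1 (0.073), IFIT2 (0.12) and SAMD9L (0.35) lay below STAT2. The comparison between genes was not tested, and each difference depends on the range of its probes. The dimmer IFIT3 probe sets, at 1.14 and 0.69, did not pass (adjusted p = 0.104 and 0.716, limma). MX2, the gene of this list below 0, had a brightest probe set at −0.22 and a dimmer one at 2.15 (adjusted p = 0.716, limma), which was looked up after its value was seen.

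Of the genes listed as targets of interferon gamma or IRF1, 14 of 17 measured stood above 0, against 55.5% of named genes, with a median of 0.33 (0.75 without replicate 2). Whether either acts on them in these retinas was not tested. B2M, the light chain of MHC class I, rose by 1.35 in the limma fit (adjusted p = 0.0238, SE 0.13), with all 3 pairs higher. The remaining 16 did not pass. NLRC5, the transactivator of MHC class I genes, read 6.17, 6.69 and 6.44 in control and 8.61, 8.59 and 7.70 in treated retinas and stood at 1.87 (SE 0.29, adjusted p = 0.114). The chemokine CXCL10 stood at 1.92 (SE 0.31, adjusted p = 0.126) and TAP1, the peptide transporter, at 1.16 (SE 0.16, adjusted p = 0.0654). Before adjustment 9 of the 17 passed, all with higher signal, where 5.02% of named genes were higher and 3.01% lower. This list too was chosen with earlier results of these data known, so its shares are descriptions. CIITA, the class II counterpart of NLRC5, stood at −0.088 (SE 1.01) at a signal that ranged from 3.12 to 6.86.

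**Figure D4:**
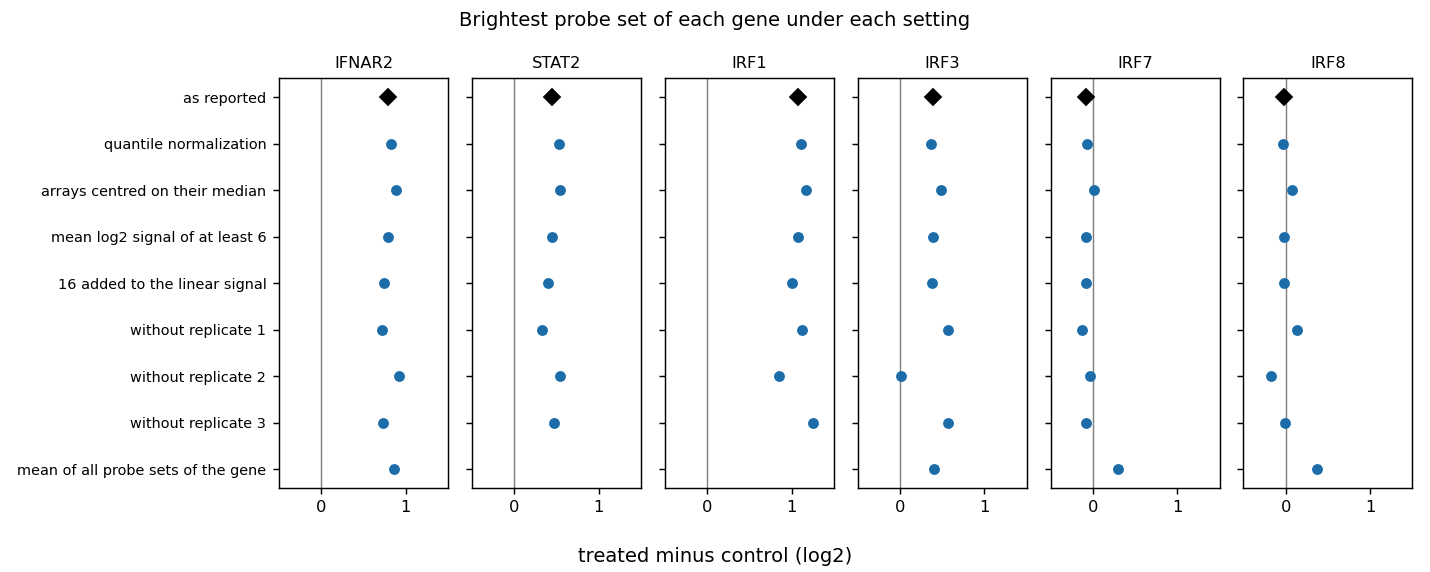
Treated minus control difference (x axis, log2) of the brightest probe set of each of the 6 genes as reported (black diamond) and under the settings that can move it (blue points; IRF1 and STAT2 have 1 probe set each and are not averaged). IRF1 stays between 0.85 and 1.25, IFNAR2 between 0.71 and 0.92 and STAT2 between 0.33 and 0.55, IRF3 falls to 0.014 without replicate 2, IRF7 lies between −0.12 and 0.30 and IRF8 between −0.18 and 0.36, each with its highest value as the mean of its probe sets.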

How the data were processed

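RNA of 6 retinas was hybridized to 6 arrays, and the authors computed MAS 5.0 signals in GeneSpring. The deposited values have a lowest value of 0 and were read as log2 signals from their range. For MAS5 no version is given in the sources used here. Present and absent calls were not analysed here.

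Treated minus control was fitted for all rows in R 4.3.3 by limma 3.58.1 (lmFit, then eBayes with trend, replicate number as a block, Benjamini-Hochberg adjustment), without a filter or further normalization. The script was tested on simulated data. Both retinas of a monkey were paired, as the methods do. Deviations from group means of arrays with the same number had correlations of 0.357, 0.137 and 0.161. Those of control and treated arrays with different numbers ran from −0.243 to 0.104. Symbols of the platform annotation were brought up to date through gene identifiers and RefSeq names of T2T-MMU8v2.0 (98.6% of the 24956 probe sets with 1 symbol matched); JAK-1 was read as JAK1. Genomic position was used only as the gene order that named the neighbours, and no sequences were used. The text names all members, and up to 4 genes per list with the largest moderated statistic. The list genes MX2, OAS1, IFIT2, SAMD9L and CIITA were named outside that rule. A few marker, neighbour and probe set values were added after they were seen. Members and lists were chosen with earlier results of these data known. Figures were drawn with matplotlib 3.10.9.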

Additional observations from a re-analysis of the deposited data

How the results depend on the processing

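The alternatives were an unpaired fit, a variance prior without trend, the methods' t-test, quantile normalization, centring on the array median, a mean log2 signal of at least 6, 16 added to the linear signal, the mean over a gene's probe sets, and leaving out each replicate with both its retinas. None of the 11 probe sets passed after adjustment in any of those with a test. IRF1 kept its direction in 10 of 10 alternatives (0.85 to 1.25, adjusted p from 0.142 to 1.00), the brightest IFNAR2 probe set in 11 of 11 (0.71 to 0.92, adjusted p from 0.123 to 1.00) and STAT2 in 10 of 10 (0.33 to 0.55). With no replicate block 1 member probe set, that of IRF1, had an unadjusted p under 0.05 in place of 2, and the adjusted p of all 11 was 1.00 (limma). Without replicate 2, and likewise without replicate 3, 4 were. The brightest IRF7 probe set turned to 0.018 after centring and to 0.30 as the mean of its probe sets, and the dimmer one to −0.038 without replicate 2 (1.14 without replicate 3). The brightest IRF8 probe set turned to 0.080 after centring, 0.14 without replicate 1 (−0.18 without replicate 2) and 0.36 as the mean of its probe sets, and the second IRF3 probe set to −0.40 without replicate 3 (1.07 without replicate 2). The median of the regulators was 0.014 without replicate 2 and 0.47 without replicate 3, and its highest value was 0.48, after centring. The cause of these shifts was not tested.

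Over all probe sets, 58 passed after adjustment (limma), 0 with no replicate block, with a prior without trend or by the methods' t-test (1275, 2889 and 2891 at an unadjusted p under 0.05), and from 17 (without replicate 1) to 222 (without replicate 2). Of the list genes, 5 passed, 0 in those same 3 settings, and from 3 (without replicate 1) to 10 (without replicate 2), with 8 without replicate 3. At an unadjusted p under 0.05, 1544 probe sets were higher and 1962 lower as deposited, and 1845 and 1143 after centring on the median. The median of the interferon gamma and IRF1 targets was 0.91 at a mean signal of at least 6, and 0.75 without replicate 2. That of the ligands was −0.33 without replicate 3 and 0.20 without replicate 2. The filter at a mean signal of 6 left no interferon ligand and removed the dimmest probe set of IFNAR2 and of IRF8. Below a log2 signal of about 5 the spread between pairs limits any statement.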
